A study of Mus musculus with 6 samples.

Results

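The 34 genes described here encode the contractile apparatus of skeletal muscle and the calcium handling and energy proteins that serve it, and they were followed in the interscapular brown adipose tissue of 6 mice, with 1 library each. They were chosen by gene symbol from a list of muscle genes, and all 34 had reads, among 21730 genes with a read in the series. The tissue was read as Nanopore direct cDNA, in which 1 read stands for 1 cDNA molecule made without PCR. All mice were male wild type C57BL/6N animals 20 weeks old. The cold group (mice 4, 11 and 15) spent 24 h singly housed at 4 °C, and the ctrl group (mice 2, 9 and 14) was kept at 22 to 24 °C. The labels do not say whether control mice were housed alone, so cold and single housing cannot be told apart. Values below are given in the order of control mice 2, 9 and 14, then cold mice 4, 11 and 15, and CPM scales a gene's reads to a library total of 1000000 reads on annotated genes.

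A striated muscle fibre shortens when myosin heads on the thick filament pull on the actin thin filament. Calcium released through the ryanodine receptor binds troponin, which shifts tropomyosin off the actin surface, and a calcium pump then returns the ion to the sarcoplasmic reticulum. Z discs anchor the thin filaments, and the giant proteins titin and nebulin keep filament position and length. Fast and slow fibres use different genes for the same part, such as separate heavy chains, light chains and troponin subunits. Brown adipocytes share a developmental lineage with skeletal muscle, and the interscapular pad lies directly on muscle of the upper back. In bulk tissue, a lower number of cells of a type and less RNA per cell cannot be told apart.

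Library depth lay between 1657985 and 2238056 reads on annotated genes, so that 3 reads corresponded to 1.34 to 1.81 CPM. The libraries had the identity their labels gave: Ucp1, the uncoupling protein that defines brown adipocytes, was read at 9555 to 14390 CPM in all 6. The sum of 8 brown adipocyte genes was 17010 to 18210 CPM in the controls and 22080 to 22210 CPM in the cold mice. Cold mouse 15 stood apart in the muscle genes, and it was also the library in which 25.7% of the 8684 tested genes had their highest CPM. The sources name no extraction or sequencing batch other than the 2 flow cells, each of which carried all 6 libraries.

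The 34 genes together took 0.0246% of the reads in control mouse 2 and 0.544% in cold mouse 15, a 22.1-fold span. Their summed level was 246, 680 and 982 CPM in the controls and 499, 2069 and 5444 CPM in the cold mice. The groups overlapped, because cold mouse 4 lay below control mice 9 and 14, while cold mice 11 and 15 lay above every control. The means were 636 ± 370.2 CPM in the controls and 2671 ± 2527 CPM in the cold mice (SD, n = 3 each). The mean log2 difference of 1.70 had an exact two-sided permutation p of 0.3, in a design of 3 against 3 that cannot go below 0.10. Without cold mouse 15 the difference was 0.89, and without both cold mouse 15 and control mouse 2 it was 0.32.

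Every one of the 34 genes was highest in cold mouse 15 and second highest in cold mouse 11. Control mouse 2 held the lowest value for 29 of them, ties counted, and cold mouse 4 for 6. At most 3 reads were seen for 18 genes in control mouse 2 and for 10 in cold mouse 4, against 0 genes in cold mice 11 and 15. The order of the libraries was the same on both flow cells, and the summed level on the second flow cell was 0.785 to 0.858 of that on the first.

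**Figure D1:**
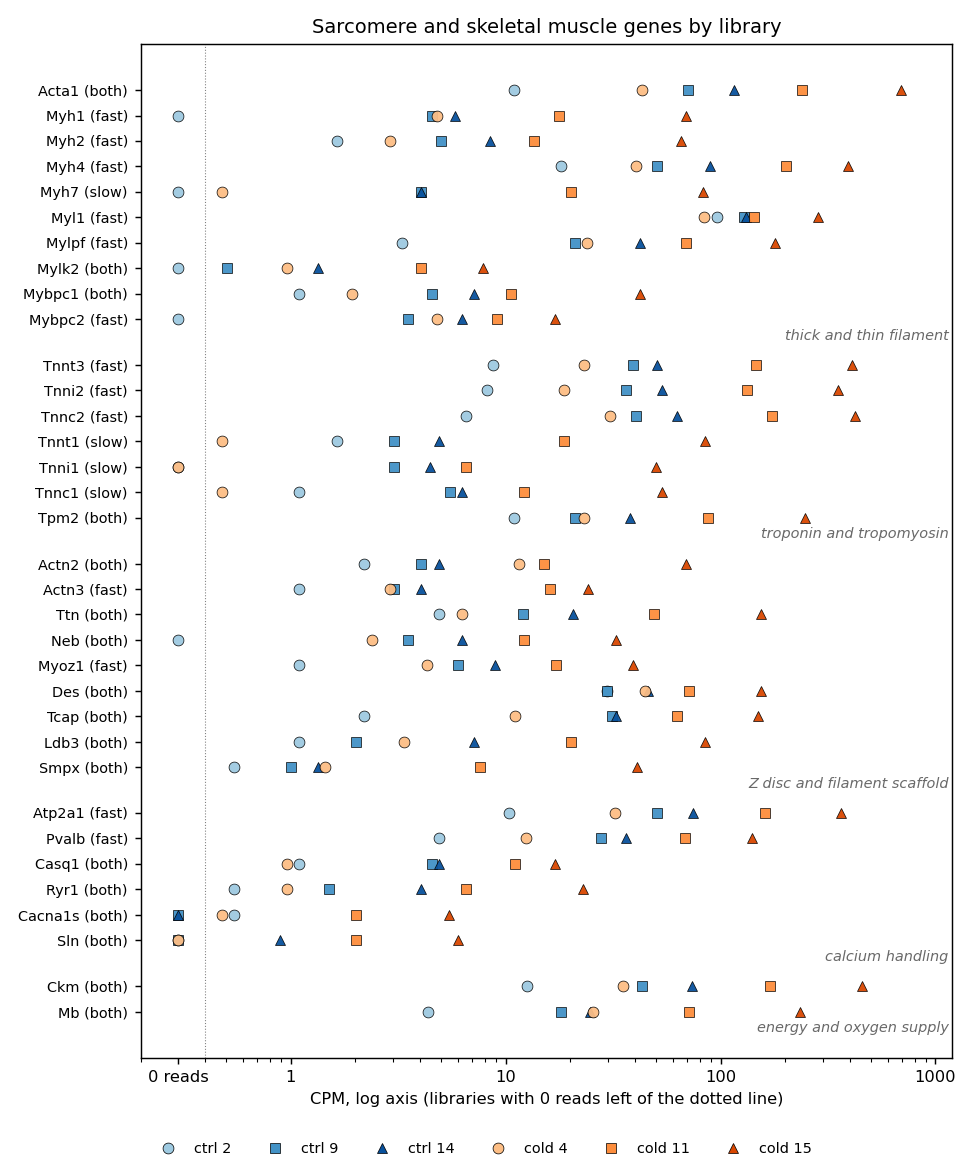
CPM of each of the 34 genes in each library on a log axis, grouped by role, with the fibre class in parentheses and libraries with 0 reads set left of the dotted line. The cold 15 point is the rightmost for all 34 genes, and the cold 4 point lies among the controls for most.

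Among the thick and thin filament genes, skeletal alpha actin had the most reads and the fast type 2B heavy chain the most of the 4 heavy chains. Acta1, skeletal alpha actin (chromosome 8, 123891769 to 123894751, minus strand, GRCm38), was read at 10.9, 70.9 and 116 CPM in the controls and 43.2, 238 and 690.0 CPM in the cold mice. Myh4, the heavy chain of type 2B fibres (chromosome 11, 67238029 to 67260446, plus strand), was read at 18.0, 50.8 and 89.4 CPM and at 40.3, 202 and 393 CPM. For both genes cold mouse 4 fell within the range of the controls. The edgeR quasi-likelihood test gave Acta1 a log2 fold change of 2.16 ± 1.27 (SE, n = 3 each, adjusted p = 0.352) and Myh4 one of 1.88 ± 1.03 (adjusted p = 0.319). Neither gene was called at an adjusted p under 0.05.

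The RefSeq promoters of these 2 genes are shown because they stand for members that moved together over the libraries. Each run is the 250 bases before the annotated start on GRCm38.p6, read 5′ to 3′ on the gene's strand, at chr8:123894776-123895025 (minus) and chr11:67237562-67237811 (plus). Capitals mark matches on either strand to the E-box CANNTG bound by myogenic helix-loop-helix factors, the CArG box bound by serum response factor, the TATAAA box and the MEF2 motif, each searched as plain letters.
Acta1 promoter: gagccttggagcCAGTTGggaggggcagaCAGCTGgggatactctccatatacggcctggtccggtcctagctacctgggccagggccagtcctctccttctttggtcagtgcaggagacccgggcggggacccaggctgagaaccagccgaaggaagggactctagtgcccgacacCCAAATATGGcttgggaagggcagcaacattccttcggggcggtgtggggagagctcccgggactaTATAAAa
Myh4 promoter: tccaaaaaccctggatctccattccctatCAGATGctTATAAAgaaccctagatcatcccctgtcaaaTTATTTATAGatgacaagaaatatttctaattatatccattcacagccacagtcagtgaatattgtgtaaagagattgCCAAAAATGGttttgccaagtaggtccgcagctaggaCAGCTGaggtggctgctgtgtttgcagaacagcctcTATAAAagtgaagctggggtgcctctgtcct
Acta1 held 2 E-boxes, 1 CArG box and 1 TATAAA match. Myh4 held 2 E-boxes, 1 CArG box, 1 MEF2 motif and 3 TATAAA matches, 1 of them inside the MEF2 match.

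RefSeq promoters were found for 26 of the 34 genes, with 32 start sites, some of which overlap. Missing were Actn3, Mylk2, Tnnt3, Tnni2, Neb, Myoz1, Sln and Tcap. A CArG box was present at 4 of these 32 starts (12.5%) and at 1.47% of 32851 starts of all genes. The starts with it belong to 3 genes, Acta1, Myh4 and Ldb3, and the overlapping Ldb3 starts carry the same site. The promoters shown above are thus not typical of the members in this motif. A MEF2 motif was present at 12.5% against 2.92%, in 4 genes. The E-box, whose 6 letters leave 2 free, was present at 78.1% against 66.2%, and TATAAA at 15.6% against 12.4%. These are letter matches in a fixed window and do not show binding.

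The other filament genes also had cold mice 11 and 15 highest. Myh2, the type 2A heavy chain, was read at 1.64, 5.03 and 8.49 CPM in the controls and 2.88, 13.6 and 65.1 CPM in the cold mice. Myh1, the type 2X heavy chain, had 0, 9 and 13 reads and 10, 35 and 115 reads. Mylpf, the fast regulatory light chain, was read at 3.28, 21.1 and 42.0 CPM and at 24.0, 69.1 and 178 CPM. In these 3 genes cold mouse 4 lay inside the control range. Myh7, the heavy chain of slow fibres, had 0, 8 and 9 reads in the controls and 1, 40 and 137 in the cold mice. Mylk2, the skeletal myosin light chain kinase, had 27 reads in all, 13 of them in cold mouse 15. The myosin binding proteins Mybpc1 (slow type) and Mybpc2 (fast type) had 122 and 77 reads over the 6 libraries. Myl1, the fast alkali light chain, did not share this span and is described with its transcripts.

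The troponin complex, with tropomyosin, had the widest span of the role groups, 43.6-fold between control mouse 2 and cold mouse 15. Tnnc2, the calcium-binding subunit of fast fibres, was read at 6.56, 40.2 and 62.5 CPM in the controls and 30.7, 173 and 424 CPM in the cold mice, which is 64.6-fold between control mouse 2 and cold mouse 15. Tnnt3, the fast tropomyosin-binding subunit, was read at 8.75, 39.2 and 50.5 CPM and at 23.0, 146 and 410.1 CPM. Tnni2, the fast inhibitory subunit, was read at 8.20, 36.2 and 53.6 CPM and at 18.7, 133 and 353 CPM. The 3 fast subunits thus ranked the 6 libraries alike, with cold mouse 4 between control mice 2 and 9. Their log2 fold changes were 2.38, 2.41 and 2.22, with adjusted p of 0.287, 0.290 and 0.329 by edgeR.

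The slow troponin subunits differed from the fast ones in cold mouse 4. Tnnt1 had 3, 6 and 11 reads in the controls and 1, 37 and 140 in the cold mice. Tnni1 had 0, 6 and 10 and then 0, 13 and 83. Tnnc1, the calcium-binding subunit shared by slow and cardiac fibres, had 2, 11 and 14 and then 1, 24 and 89. Cold mouse 4 was at or below every control for all 3 slow subunits, and cold mice 11 and 15 were above every control. Tnnc1 passed the filter on low counts and had a log2 fold change of 2.13 ± 1.54 (SE, adjusted p = 0.446 by edgeR), and Tnnt1 and Tnni1 were not tested.

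The Z disc and the filament scaffold held the gene with the lowest adjusted p. Actn2, the alpha-actinin of all striated fibres, which cross-links actin at the Z disc, was read at 2.19, 4.02 and 4.92 CPM in the controls and 11.5, 15.1 and 69.4 CPM in the cold mice. Its groups did not overlap, and cold mouse 4 was above all controls. The log2 fold change was 2.92 ± 1.14 (SE, n = 3 each, adjusted p = 0.180 by edgeR). Without cold mouse 15 it was 1.75 ± 0.36 (adjusted p = 0.000482 by edgeR), and with all 6 libraries DESeq2 gave 3.01 (adjusted p = 0.0108). By edgeR this gene was thus called only when cold mouse 15, its highest library, was left out. With all 6 libraries its call depended on the tool. Actn3, the alpha-actinin of fast fibres, had 2, 6 and 9 reads and then 6, 32 and 40, with cold mouse 4 inside the control range.

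The remaining scaffold genes overlapped between groups, apart from Smpx. Ttn, which encodes the spring-like titin, was read at 4.92, 12.1 and 20.6 CPM in the controls and 6.24, 48.9 and 155 CPM in the cold mice. Tcap, which caps titin at the Z disc, was read at 2.19, 31.2 and 32.6 CPM and at 11.0, 62.5 and 149 CPM. Ldb3, a Z disc adaptor with PDZ and LIM domains, had 2, 4 and 16 reads and then 7, 40 and 140, and its log2 fold change of 3.14 ± 1.57 was the highest of the tested members (adjusted p = 0.281 by edgeR). Neb (nebulin) and Myoz1 (a Z disc protein of fast fibres that binds calcineurin) had 104 and 142 reads in all. Smpx, a small protein of striated muscle, had 1, 2 and 3 reads and then 3, 15 and 68; its groups did not overlap in CPM, and it was below the filter for testing.

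Des, the intermediate filament desmin, which smooth muscle cells and pericytes also make, had a narrower span. It was read at 29.5, 29.7 and 46.0 CPM in the controls and 44.7, 71.6 and 155 CPM in the cold mice. Cold mouse 15 was 5.25-fold above control mouse 2, and cold mouse 4 lay just under control mouse 14. Desmin made up 12.0% of the reads of the 34 genes in control mouse 2 and 2.85% in cold mouse 15. Its log2 fold change was 1.24 ± 0.58 (SE, adjusted p = 0.251 by edgeR).

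Calcium handling genes had cold mice 11 and 15 highest, with the other libraries in an order that differed between genes. Atp2a1, the calcium pump SERCA1 of fast fibres, was read at 10.4, 50.8 and 74.6 CPM in the controls and 32.2, 161 and 362 CPM in the cold mice. Pvalb, the calcium buffer parvalbumin of fast fibres, was read at 4.92, 27.7 and 36.2 CPM and at 12.5, 68.1 and 141 CPM. Both placed cold mouse 4 between control mice 2 and 9. Casq1 (calsequestrin, the calcium store protein), Ryr1 (the release channel) and Cacna1s (its voltage sensor) had 74, 66 and 15 reads in all. Sln, sarcolipin, a small regulator of the pump that has been studied in muscle heat production, had 0, 0 and 2 reads in the controls and 0, 4 and 10 in the cold mice, too few to test.

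Energy and oxygen supply genes were read at intermediate levels. Ckm, the muscle creatine kinase, was read at 12.6, 43.2 and 73.3 CPM in the controls and 35.1, 170.0 and 455 CPM in the cold mice. Mb, the oxygen-binding protein myoglobin, was read at 4.37, 18.1 and 24.6 CPM and at 25.5, 71.6 and 234 CPM. Cold mouse 4 lay inside the control range for Ckm and just above it for Mb. The log2 fold changes were 2.21 ± 1.15 (SE, adjusted p = 0.296) and 2.64 ± 1.13 (SE, adjusted p = 0.216) by edgeR. Mb overlaps the antisense gene Gm49540 over 412 exonic nt, and Atp2a1 overlaps Rabep2 over 268 nt. The use of strand in the counting is not given, so reads lying wholly within a shared stretch cannot be told apart. Gm49540 had 60 reads against 682 for Mb, and Rabep2 113 against 1274 for Atp2a1.

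Per kb of its most read transcript, the mean level over the 6 libraries was highest for Tnnc2 (176 CPM per kb), followed by Tnni2 (137), Acta1 (135), Myl1 (134) and Tnnt3 (109). These neighbours differ by less than the spread between mice. Myh4 stood at 22.0 CPM per kb, above Myh7, Myh1 and Myh2 at 3.02, 2.80 and 2.65. Dividing by length lowers the longest transcripts, such as Ttn at 0.386 CPM per kb, since a long read counts once whatever its length.

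In the edgeR fit over 8684 genes, 24 of the 34 passed the filter on low counts and 0 were called at an adjusted p under 0.05, where 20% of all tested genes were called. DESeq2 called 1 (Actn2), with 10.7% of all genes called. At an unadjusted p under 0.05 the count was 10 of 24 with DESeq2 and 0 with edgeR. All 24 log2 fold changes were above 0, from 0.42 (Myl1) to 3.14 (Ldb3), with a median of 2.15 against 0.0014 over all tested genes. The median SE was 1.16 for the 24 genes and 0.214 over all genes. Groups that do not overlap in CPM were seen for 2 of the 24 tested members, Actn2 and Mb, which is 8.33% against 35.6% of all tested genes. The 10 untested genes were Actn3, Myh7, Mylk2, Tnnt1, Tnni1, Casq1, Ryr1, Cacna1s, Sln and Smpx. Leaving out cold mouse 4, which had the lowest levels of the cold group, gave 2 calls, Actn3 (log2 fold change 2.72) and Casq1 (1.83). Neither passed the filter with all 6 libraries, and 15.3% of all tested genes were called without cold mouse 4. At an unadjusted p under 0.05 that edgeR fit counted 19 of 31 members. The share of all genes at this unadjusted threshold was not counted. The counts of 10 of 24 and 19 of 31 thus have no background beside them. With no filter on low counts 4 of 34 were called (Actn3, Mylk2, Cacna1s and Mybpc2), against 7.97% of 21730 genes. Leaving out cold mouse 15 lowered the median log2 fold change to 0.996, and leaving out both cold mouse 15 and control mouse 2 lowered it to 0.564. Actn2 was the member called each time, with 16.4% and 13.1% of all tested genes called.

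The 34 genes moved with muscle genes outside the list. The sum of 20 other skeletal muscle genes, from glycogen phosphorylase (Pygm) to the voltage-gated sodium channel Scn4a, was 25.7, 75.9 and 92.9 CPM in the controls and 55.7, 203 and 555 CPM in the cold mice. This is a 21.6-fold span in the same order of libraries as the 34 genes. Of these 20 genes 5 were tested, and 1 was called higher and 0 lower, where 20% of all tested genes were called. The called gene was Srl (sarcalumenin, log2 fold change 1.35, adjusted p = 0.0443 by edgeR). The median log2 fold change of the 5 was 1.85. A second fit entered the log2 of this sum as a covariate, which left 3 residual degrees of freedom. Since the sum ranks the 6 libraries as the members do, this fit describes members relative to other muscle genes and does not apportion the difference between cold and control mice.

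Relative to those genes, the median log2 fold change was -0.09, with 9 of 24 above 0 and 15 below, and 18 lay within 0.5 of 0. The median SE fell to 0.27. The fit called 2 members, where 13% of all tested genes were called. Mb was higher in the cold mice by 0.65 ± 0.22 (SE, adjusted p = 0.0462 by edgeR), and Myl1 was lower at -0.44 ± 0.15 (SE, adjusted p = 0.0469). Actn2 had a log2 fold change of 1.28 (adjusted p = 0.0727) and Tnnc1 one of -1.28 (adjusted p = 0.102). The adjusted p of both called members lay close to the threshold.

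**Figure D2:**
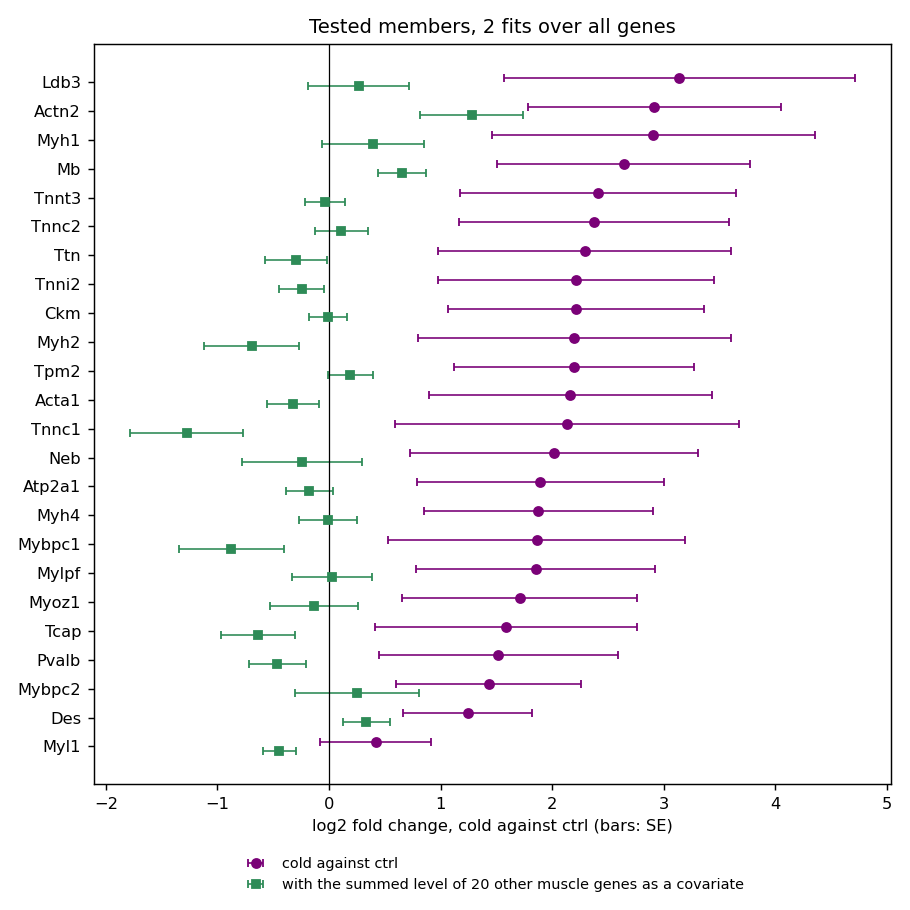
Log2 fold change of cold against ctrl with its SE for the 24 tested genes, in the fit without a covariate (circles) and in the fit with the summed level of 20 other muscle genes (squares). The circles range from 0.42 to 3.14 with SE up to 1.57, while 22 of the 24 squares lie within 1 of 0.

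Smooth muscle and pericyte genes did not follow this order. The sum of 8 smooth muscle and pericyte genes was 228, 221 and 209 CPM in the controls and 191, 181 and 194 CPM in the cold mice, a 1.26-fold span. Of 6 tested, 1 was called lower and 0 higher, where 20% of all tested genes were called. The called gene was the pericyte gene Rgs5 (log2 fold change -0.72, adjusted p = 1.16e-05 by edgeR). The median log2 fold change of the 6 was 0.12, and Acta2, smooth muscle actin, had 0.46 (adjusted p = 0.0501). Of 8 brown adipocyte genes, 4 were called higher and 1 lower, among them Ppargc1a, the coactivator of thermogenic genes, at 20.2 to 28.1 CPM in the controls and 126 to 142 CPM in the cold mice. Of 7 heart muscle genes, 5 were at 0 in all libraries (Nppa, Nppb, Tnni3, Tnnt2 and Mybpc3), and Myh6 and Myl7 had 1 read each. Of 7 myogenic factor and satellite cell genes, 5 were at 0 (Pax7, Pax3, Myf5, Myod1 and Mymk). Myf6, the factor of mature fibres, had 1, 2 and 2 reads in the controls and 1, 2 and 17 in the cold mice. Myog had 0, 0 and 0 reads in the controls and 0, 2 and 2 in the cold mice. Of 4 developmental muscle genes, Myh3 and Chrng were at 0 and Myh8 had at most 1 read a library, and Myl4 had 2 to 10. The 6 genes of the neuromuscular junction summed to 4 to 12 reads a library, and the 5 of tendon and fascia to 1 to 3.

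**Figure D3:**
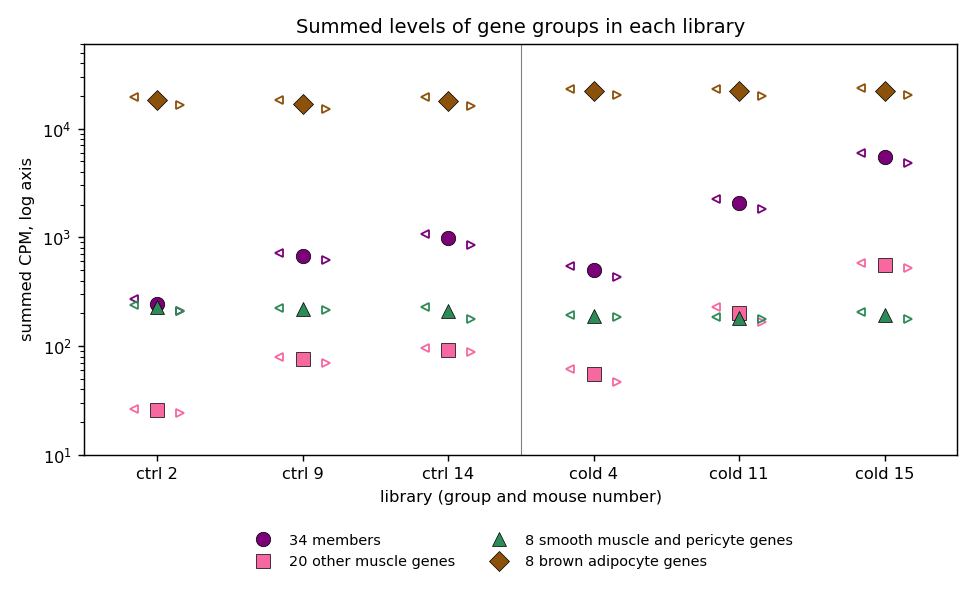
Summed CPM on a log axis for the 34 genes, 20 other muscle genes, 8 smooth muscle and pericyte genes and 8 brown adipocyte genes in each library; large symbols are both flow cells together and small open triangles each flow cell. The 2 muscle sums span 22.1-fold and 21.6-fold, and the smooth muscle and pericyte sum 1.26-fold.

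Of 4 oxidative enzymes and carriers that muscle and brown fat share, 1 was called higher and 0 lower, where 20% of all tested genes were called. Cox6a2, the muscle and heart form of a cytochrome oxidase subunit, had 1, 17 and 25 reads in the controls and 12, 72 and 196 in the cold mice. Ckmt2, the mitochondrial creatine kinase of striated muscle, had 3, 11 and 18 and then 12, 48 and 142. Both ranked control mouse 2 lowest and cold mouse 15 highest, and neither was called. Fabp3, a fatty acid binding protein, was read at 1370, 911 and 1414 CPM in the controls and 5483, 4639 and 5890 CPM in the cold mice, without overlap, and was called (log2 fold change 2.04, adjusted p = 0.0067 by edgeR). Slc25a4, the mitochondrial ADP/ATP carrier, was read at 767, 906 and 1018 CPM and at 1037, 1055 and 1371 CPM, without overlap, and was not called (log2 fold change 0.29, adjusted p = 0.148).

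Fast fibre genes had more reads than slow ones in every library. The 13 fast members summed to 161, 416 and 574 CPM in the controls and 285, 1170 and 2759 CPM in the cold mice. The 4 slow members (Myh7, Tnnt1, Tnni1 and Tnnc1) summed to 2.73, 15.6 and 19.7 CPM and to 1.44, 57.5 and 271 CPM. Mybpc1, the slow type of its pair, was counted in neither class, while Mybpc2 was counted as fast. In cold mouse 4 Mybpc1 had 4 reads, and the 4 slow members together had 3. The slow share of the reads of both classes was 1.67%, 3.61% and 3.31% in the controls. In the cold mice it was 0.502% (exact binomial 95% interval 0.104 to 1.46%), 4.69% (3.88 to 5.60%) and 8.94% (8.16 to 9.76%). The cold mice lay on both sides of the controls. Myl1 supplied most of the fast reads in control mouse 2, and without it the slow share was 4.10%, 5.13% and 4.26% in the controls and 0.711%, 5.30% and 9.86% in the cold mice. The interval of cold mouse 15 lay above those of the other 5 libraries with Myl1 included, while without Myl1 (9.01 to 10.8%) it overlapped that of control mouse 2 (1.34 to 9.30%). The log2 ratio of fast to slow reads differed by -0.05 between the groups (exact two-sided permutation p = 1.0), and its sign changed with the choice of genes and libraries. Such intervals cover counting error only.

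Troponin has a fast and a slow gene for each subunit. Slow subunits made up 10.4%, 9.09% and 8.58% of troponin reads in the controls, from 5 of 48, 23 of 253 and 35 of 408 reads. In the cold mice the share was 1.31% (2 of 153 reads, interval 0.159 to 4.64%), 7.62% (74 of 971, 6.03 to 9.47%) and 13.7% (312 of 2280, 12.3 to 15.2%). The interval of control mouse 2 spans 3.47 to 22.7% and overlaps all the others, and that of control mouse 9 (5.85 to 13.3%) overlaps that of cold mouse 15. Cold mouse 11 lay below all 3 controls in this share and above all 3 in the share over all fast and slow members. Among heavy chain reads, Myh4 took 91.7%, 78.9% and 83.0% in the controls and 83.2%, 79.7% and 64.4% in the cold mice, and Myh7 took 0 of 36 reads (up to 9.74%), 6.25% and 3.73%, then 0.990%, 7.95% and 13.6%. Cold mouse 15 thus had the lowest Myh4 share and the highest Myh7 share. Outside the list, the slow light chains Myl2 and Myl3 were set against Mylpf, with Myl1, the other fast light chain, left out. They took 50.0% (6 of 12 reads, interval 21.1 to 78.9%), 40.0% and 25.4% of these reads in the controls. In the cold mice they took 7.41% (4 of 54 reads, 2.06 to 17.9%), 23.0% and 40.3%, where cold mouse 4 was again the lowest.

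**Figure D4:**
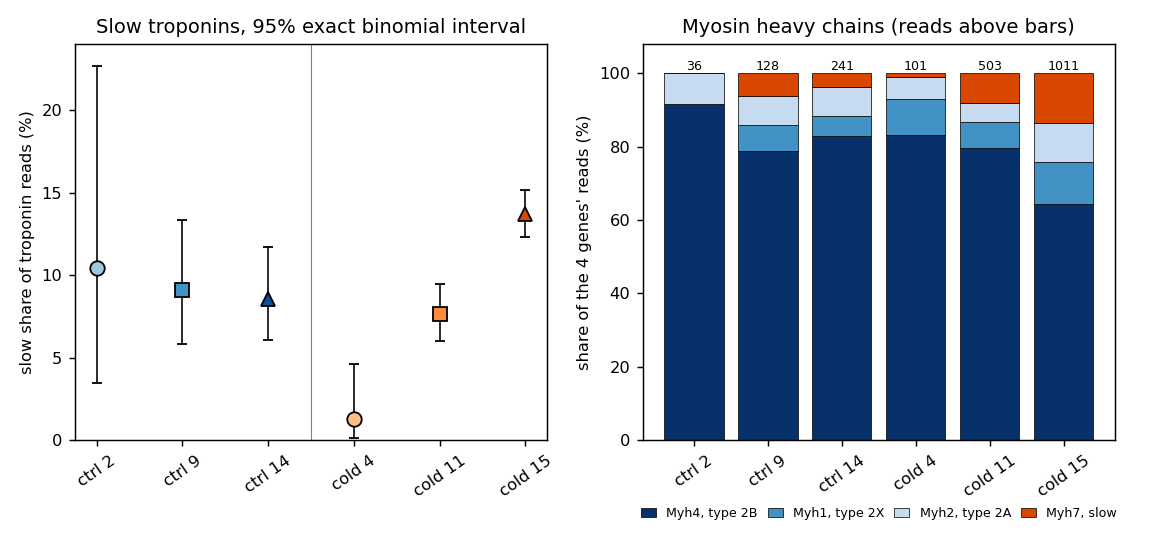
Left, the slow share of troponin reads in each library with its exact binomial 95% interval; right, the share of each of 4 heavy chain genes in their summed reads, with the read number above each bar. Cold mouse 4 has the lowest slow troponin share (1.31%) and cold mouse 15 the highest (13.7%), with the controls at 8.58 to 10.4%.

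Among the 10 members with at least 10 reads in control mouse 2, Myl1 had the smallest fold between that library and cold mouse 15. It was read at 96.8, 128 and 132 CPM in the controls and 84.1, 143 and 284 CPM in the cold mice, so cold mouse 4 was lowest and cold mouse 15 was 2.94-fold above control mouse 2. It made up 39.3% of the reads of the 34 genes in control mouse 2 and 5.22% in cold mouse 15. The log2 fold change was 0.42 ± 0.50 (SE, n = 3 each, adjusted p = 0.658 by edgeR). The gene uses separate starts to make a long and a short light chain that share their later exons. Early coding stretches that set Myl1-201 and Myl1-202 apart are shown, since these transcripts differed in span. Both lie on the minus strand of chromosome 1 of GRCm38. They are chr1:66944792-66944905 (exon 1 of Myl1-201) and chr1:66934518-66934542 (exon 2 of Myl1-202), read 5′ to 3′.
Myl1-201 exon 1, coding: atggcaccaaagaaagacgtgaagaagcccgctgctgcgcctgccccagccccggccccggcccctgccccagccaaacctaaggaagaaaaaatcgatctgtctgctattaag
Myl1-202 exon 2: tccttcagtgctgaccagattgccg
The stretch of 114 coding nt in Myl1-201 starts with the initiation codon and has no counterpart in Myl1-202, whose exon 1 holds only the initiation codon. Myl1-201 also has 28 coding nt in exon 2 that Myl1-202 lacks, which are not shown.

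Myl1-201 and Myl1-202 were spread differently over the libraries. Myl1-201 was read at 59.6, 74.9 and 71.9 CPM in the controls and 49.5, 73.7 and 142 CPM in the cold mice, a 2.87-fold span. Myl1-202 was read at 8.75, 22.1 and 31.3 CPM and at 11.5, 44.9 and 97.1 CPM, an 11.1-fold span. Myl1-207 is a coding transcript whose start (chr1:66935637) lies closer to that of Myl1-202 (chr1:66935354) than to that of Myl1-201 (chr1:66945143). It was read at 19.7, 20.6 and 22.3 CPM and at 18.3, 21.2 and 38.6 CPM. Its 2.12-fold span was nearer that of Myl1-201, so the span did not follow the start region. The share of Myl1-202 in the gene's reads was 9.04%, 17.3% and 23.7% in the controls and 13.7%, 31.5% and 34.2% in the cold mice. Shares overlapped between groups, and edgeR's transcript usage test gave Myl1 an unadjusted p of 0.692 and an adjusted p of 1.00.

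Tpm2, beta tropomyosin, showed a like split between transcripts. The gene makes skeletal and other tropomyosins from alternative internal and last coding exons, and it was read at 10.9, 21.1 and 38.0 CPM in the controls and 23.1, 87.8 and 247 CPM in the cold mice, with cold mouse 4 inside the control range. The 2 alternative pairs are shown because the transcripts using them differed in span. They lie on the minus strand of chromosome 4 of GRCm38 at chr4:43518644-43518719 and chr4:43515924-43516003 (Tpm2-202), and at chr4:43519003-43519078 and chr4:43514782-43514861 (Tpm2-203), and are read 5′ to 3′.
Tpm2-202 exon 6: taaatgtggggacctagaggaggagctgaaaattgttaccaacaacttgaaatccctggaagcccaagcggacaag
Tpm2-203 exon 6: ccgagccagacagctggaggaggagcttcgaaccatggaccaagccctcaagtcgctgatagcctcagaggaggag
Tpm2-202 exon 9, coding: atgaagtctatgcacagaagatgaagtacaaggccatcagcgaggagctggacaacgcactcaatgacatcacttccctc
Tpm2-203 exon 9, coding: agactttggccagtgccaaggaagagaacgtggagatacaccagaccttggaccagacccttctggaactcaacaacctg
The exons 6 agree at 53.9% of 76 positions and the coding stretches of the exons 9 at 41.2% of 80 positions, so reads over them can be told apart.

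Tpm2-202 was read at 3.28, 10.6 and 21.4 CPM in the controls and 7.68, 63.6 and 192 CPM in the cold mice, a 58.7-fold span like that of the troponins. Tpm2-203 was read at 6.01, 5.53 and 7.15 CPM and at 11.5, 10.1 and 10.9 CPM, a 2.08-fold span. In Tpm2-203, picked out after its values were seen, cold mouse 15 did not stand apart and the groups did not overlap, from 11 to 24 reads a library. The share of Tpm2-203 in the gene's reads was 55.0% in control mouse 2 and 4.39% in cold mouse 15.

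**Figure D5:**
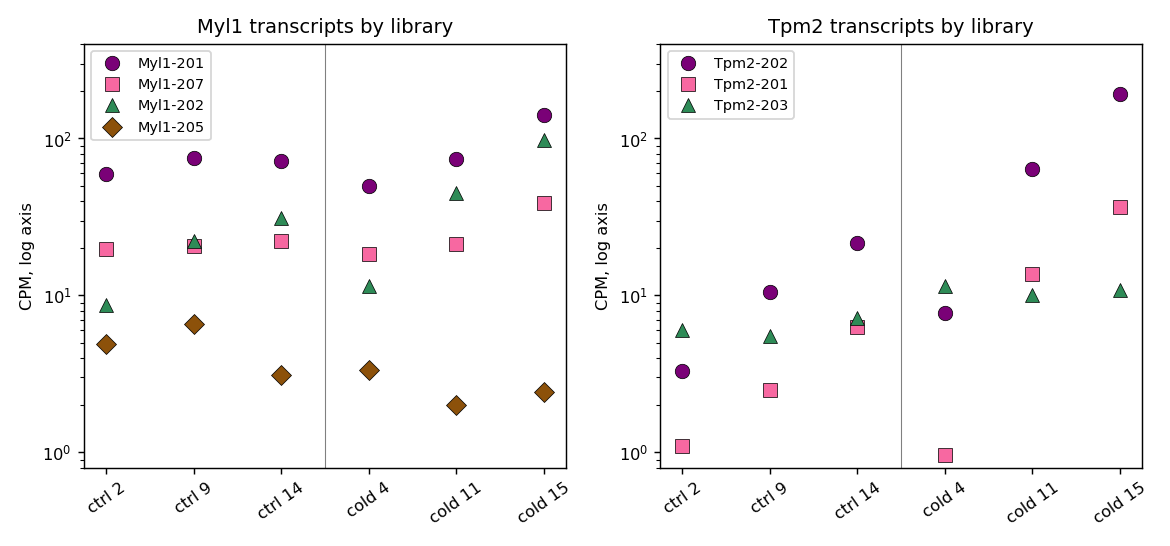
CPM on a log axis for the transcripts of Myl1 and Tpm2 in each library, controls left of the line and cold mice right of it. Myl1-202 and Tpm2-202 span 11.1-fold and 58.7-fold, Myl1-201 and Tpm2-203 2.87-fold and 2.08-fold.

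Transcript usage was tested in 8 of the members (Myh4, Myl1, Tnnt3, Tpm2, Ckm, Mb, Pvalb and Ttn) and 0 were called, with 0.195% of 2568 tested genes called. At an unadjusted p under 0.05 the count by edgeR was also 0, and no other tool was run on usage. The unadjusted p by edgeR ran from 0.692 (Myl1) to 0.9997 (Myh4). Tpm2 had 0.924, although the Tpm2-203 share was 55.0% in control mouse 2 and 4.39% in cold mouse 15. The power of this test at the members' spread between mice was not measured, so equal usage is not shown. The main transcripts of other members took these shares over the libraries. Ckm-203 held 79.5 to 87.7% of Ckm reads, Mb-203 54.5 to 75.0% of Mb reads, and Myh4-201 87.9 to 92.2% of Myh4 reads. Tnnt3, whose transcripts differ by short cassette exons, had reads on 23 transcripts, of which Tnnt3-213 held 25.0 to 35.4% and Tnnt3-225 22.9 to 37.5%.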

How the data were processed

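Frozen tissue of 6 mice was extracted, poly(A) RNA was selected and 100 ng of it went into barcoded direct cDNA libraries, per the labels' protocols; their homogenisation step names another fat depot than the tissue fields, which were followed. The authors deposited, for each of 2 flow cells, raw counts for every transcript with a read. The submitters' processing notes name minimap2 and GRCm38. Not given in the sources used here are its version, the annotation, strand use, read filters and how a read fitting several transcripts was assigned.

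Transcripts were matched to GENCODE M21 (59371 of 59543 with a read, leaving out 0.0836% of reads), and counts were summed over flow cells and genes, so n is the number of mice. Total counts were 1657985 to 2238056 a library. Tests used edgeR 4.0.16 (TMM, filterByExpr, robust quasi-likelihood, Benjamini-Hochberg adjusted p called at 0.05 over all genes), its diffSpliceDGE for transcript usage, DESeq2 1.42.0 as an alternative, and exact permutation in scipy 1.17.1 for single values, in R 4.3.3 and Python 3.11.15. The scripts were tested on simulated data with a single dispersion of 0.02, which was not set to the spread of the members between mice. Transcript sharing was searched with minimap2 2.31. Every member is named; other lists are given by counts, sums and up to 2 genes each, with single genes at 0 or called added after their values were seen. The members and lists were chosen with earlier results of these data known.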

Additional observations from a re-analysis of the deposited data

How the results depend on the processing

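The summed level was higher in the cold group under every alternative run, with a log2 difference of 0.89 to 2.62 when 1 mouse was left out and 0.32 without cold mouse 15 and control mouse 2 together. The count of members called was 0 of 24 in the edgeR fit, where 20% of all tested genes were called. It was 1 of 24 with DESeq2 (10.7% of all genes) and 4 of 34 without the filter on low counts (7.97%). With the muscle covariate the count was 2 of 24 (13% of all genes). Without cold mouse 15 and control mouse 2 together it was 1 of 26 (13.1%). When 1 mouse was left out it was 0 to 2, with 15.2 to 16.5% of all genes called. The log2 ratio of fast to slow reads, -0.05, became 0.33 as the mean of 4 counterpart pairs, 0.079 with Myl2, Myl3, Myoz2 and Casq2 among the slow genes, 0.022 and 0.010 on the first and second flow cell alone, 0.41 without Myl1 (an alternative chosen after seeing the data), 1.18 without cold mouse 15 and control mouse 2 together, and -1.31 to 0.83 when 1 mouse was left out; the cause was not tested. With the muscle covariate the log2 fold change turned negative for Acta1 (-0.32), Myh2 (-0.69), Myh4 (-0.0085), Myl1 (-0.44), Tnnt3 (-0.038), Tnni2 (-0.24), Tnnc1 (-1.28), Ckm (-0.0072), Atp2a1 (-0.18), Pvalb (-0.46), Ttn (-0.30), Neb (-0.24), Myoz1 (-0.13), Mybpc1 (-0.87) and Tcap (-0.64). Myl1 ranged from -0.13 (without cold mouse 15) to 0.74 (without cold mouse 4) when 1 mouse was left out and was negative without cold mouse 15 and control mouse 2 together (-0.24). Transcript usage gave 0 called members under every alternative run, which does not show equal usage.

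No paired analysis was possible because no mouse number occurs in both groups. Up to 18 members had 3 reads or fewer in a library, and 10 did not pass the filter on low counts, so calls in these genes depended on the filter and on the libraries kept. Reads lying wholly within the stretch that a member shares with an antisense gene cannot be told apart. On the same strand, Myh7 (195 reads) and Myh6 (1 read) share 1180 nt at 95.1% identity. How a read fitting both of these was assigned is not given.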
